A study of Mus musculus with 148 samples.

Results

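The samples described here are the 35 enterocyte samples of mice given lactose-containing milk (LAC+), out of 148 samples in the series. They were taken by their labels alone, as every sample at postnatal day 90 (P90) with lactose milk. They cover 5 of the 9 equal parts into which the small intestine was cut, with 7 samples each: segment 1 (proximal duodenum), segment 3 (labelled distal duodenum, and called proximal jejunum in the text of the study), segment 4 (proximal jejunum), segment 7 (proximal ileum) and segment 8 (medial ileum). The question was how DNA modification of the lactase gene and its neighbour differed from segment to segment in these mice. The animals were C57BL/6 mice, with the substrain written C57BL/6NCrl in the protocol and C57BL/6MCrl in the sample labels, and drank milk in place of water from P30 for 60 days, with sucrose added to the LAC+ milk. Set beside them where a difference was tested were 32 P90 samples of mice on lactose-free milk (lac-) and 71 samples of adult mice at P60 that had no milk treatment. In every group, enterocytes were released from the tissue by chelation, and their DNA was bisulfite-converted, captured with padlock probes and sequenced. The purity of the preparations was not analysed here, so a change within enterocytes and a change in the mix of cells cannot be told apart.

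*Lct* encodes lactase-phlorizin hydrolase, the brush-border enzyme that splits milk sugar into glucose and galactose and that enterocytes make mainly in the upper and middle small intestine. *Mcm6*, a subunit of the replicative DNA helicase, lies just upstream of *Lct* and is known in humans for carrying a regulatory element of the lactase gene in an intron. DNA modification in mammals sits mostly on the cytosine of CpG dinucleotides, and low modification is a common feature of active promoters and enhancers. Most of the other captured regions were control regions of imprinted genes, where typically only the copy from a single parent is modified.

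In the mouse genome (build GRCm38/mm10) *Lct* (ENSMUSG00000026354) spans chr1:128284756-128328318 and *Mcm6* (ENSMUSG00000026355) chr1:128331590-128359664. Both lie on the minus strand, each with 17 annotated exons. The sequences below, from the GRCm38.p6 reference and read 5′ to 3′, hold the CpGs at which segments differed most clearly, with every CpG in capitals. The first 4 follow the strand of the genes. They are the junction of *Lct* exon 8 and intron 8 (chr1:128299800-128299918), where segment 4 stood above segment 1, a stretch of *Lct* intron 2 (chr1:128314901-128314961) that was higher in both ileal segments than in segment 3, coding sequence of *Lct* exon 1 (chr1:128328044-128328175), and *Mcm6* exon 13 with the end of intron 12 (chr1:128338142-128338400), where segment 8 stood farthest above segment 3. The other 3 are from imprinted regions with the clearest segment differences outside the locus: *Zdbf2* (chr1:63255133-63255184, plus strand), *Peg13*/*Trappc9* (chr15:72801552-72801603, minus strand) and *Plagl1* (chr10:13089915-13089973, plus strand).
Lct exon 8 and intron 8: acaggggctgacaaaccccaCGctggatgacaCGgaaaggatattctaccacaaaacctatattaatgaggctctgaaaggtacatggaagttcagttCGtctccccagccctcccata
Lct intron 2: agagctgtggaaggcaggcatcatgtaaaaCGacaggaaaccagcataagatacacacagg
Lct exon 1: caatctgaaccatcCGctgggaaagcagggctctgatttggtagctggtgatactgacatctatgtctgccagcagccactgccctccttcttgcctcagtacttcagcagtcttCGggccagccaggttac
Mcm6 exon 13 and intron 12: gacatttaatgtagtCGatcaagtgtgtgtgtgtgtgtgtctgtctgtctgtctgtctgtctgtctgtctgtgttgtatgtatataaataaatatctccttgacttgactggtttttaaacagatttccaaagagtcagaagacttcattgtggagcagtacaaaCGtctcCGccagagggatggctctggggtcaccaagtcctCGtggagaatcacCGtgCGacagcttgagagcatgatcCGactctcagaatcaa
Zdbf2: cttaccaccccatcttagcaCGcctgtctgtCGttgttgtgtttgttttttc
Peg13/Trappc9: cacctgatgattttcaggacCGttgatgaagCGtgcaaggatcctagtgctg
Plagl1: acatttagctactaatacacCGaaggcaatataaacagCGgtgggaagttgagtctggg
In the *Lct* exon 8 sequence all 3 CpGs were called on the minus strand between segments 4 and 1. In the *Mcm6* sequence 9 calls from 5 of the 7 CpGs were tested, and 6 of the 9 were called between segments 8 and 3.

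Modification was expressed as the percentage of reads that still showed a cytosine at a site after bisulfite treatment, a reading that does not separate methylated from hydroxymethylated cytosine. Each strand of a CpG was read separately, so a CpG can give 2 calls. To be tested, a call needed over 30 reads in 3 or more samples of each segment, which left 1554 calls, 669 of them in the *Lct*–*Mcm6* locus (chr1:128275665-128364310) and 885 in 22 other captured targets on autosomes. The LAC+ libraries held 39574224 to 196610785 cytosine calls, with a median of 1056 to 5804.5 reads per tested CpG call. Mean CpG modification of the locus ranged from 76.2% to 79.9% over the 35 libraries, and modification at cytosines outside CpGs stayed between 0.697% and 0.871%. With reads taken as independent, the counting error of a library was small beside the spread between libraries. The reads carry no molecular identifiers, so the number of molecules counted is not known.

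The libraries were not all sequenced alike. All 14 libraries of segments 1 and 4 came from lane 3, whereas segments 3, 7 and 8 came from lane 1, apart from replicate 7 of segment 3, the only library from lane 2 and the least deeply sequenced of the 35. The files of 5 further libraries, replicates 1 and 2 of segment 3, replicates 1 and 2 of segment 7 and replicate 1 of segment 8, were not marked as merged, unlike the rest of lane 1. Segment 4 was therefore compared with segment 1, and segments 3, 7 and 8 with each other. Depth still differed within these sets. The segment medians of reads per CpG call were 3165 in segment 1 and 5445.5 in segment 4. In segments 3, 7 and 8 they were 1662, 2464 and 2343.5. Median modification outside CpGs was 0.753% in segment 1 and 0.825% in segment 4. The part of depth in the segment differences was not tested. Tests between the 2 sets of segments are given as counts only, and levels set side by side across them carry no order, because segment and lane cannot be told apart there. Samples of different segments may come from the same mouse, which the labels do not give and these tests do not use.

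Of the 669 CpG calls of the locus, 9 differed between segments 4 and 1 (1.35%, against 1.03% of all 1554), and all 9 were higher in segment 4, the jejunal segment. Between segments 7 and 3 the count was 1 of 669 (0.149%, against 0.515% of all 1554), between segments 8 and 3 it was 18 of 669 (2.69%, against 1.93%), and these were all higher in the ileal segment. No call passed between segments 8 and 7, although 60 of 669 had an unadjusted p under 0.05 and limma also made 0 calls. Calls were made at a Bonferroni-adjusted p under 0.01 over all 1554 tested CpG calls in a quasi-binomial model of the reads that was fitted to the 5 segments together. The comparisons of segments 7 and 8 with segment 3 share the segment 3 libraries. Most of the 669 calls, those that passed included, pointed the same way. In the order 4 minus 1, 7 minus 3, 8 minus 3 and 8 minus 7, 453, 484, 521 and 440 were higher in the more distal segment. The median differences over all 669 were 0.399, 0.539, 0.821 and 0.305 percentage points. Outside the locus 391, 632, 663 and 540 of the 885 calls were higher in the same order. Their median differences were -0.228, 1.03, 1.44 and 0.438 points, so the small rise from segment 3 to the ileum was not particular to the locus. The number of calls depended on single libraries and on the pooling of the spread: without same-numbered libraries in turn, segment 4 minus 1 gave 3 to 7 calls and segment 8 minus 3 gave 3 to 15, and a fit to the libraries of the pair alone gave 4 in each.

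**Figure D1:**
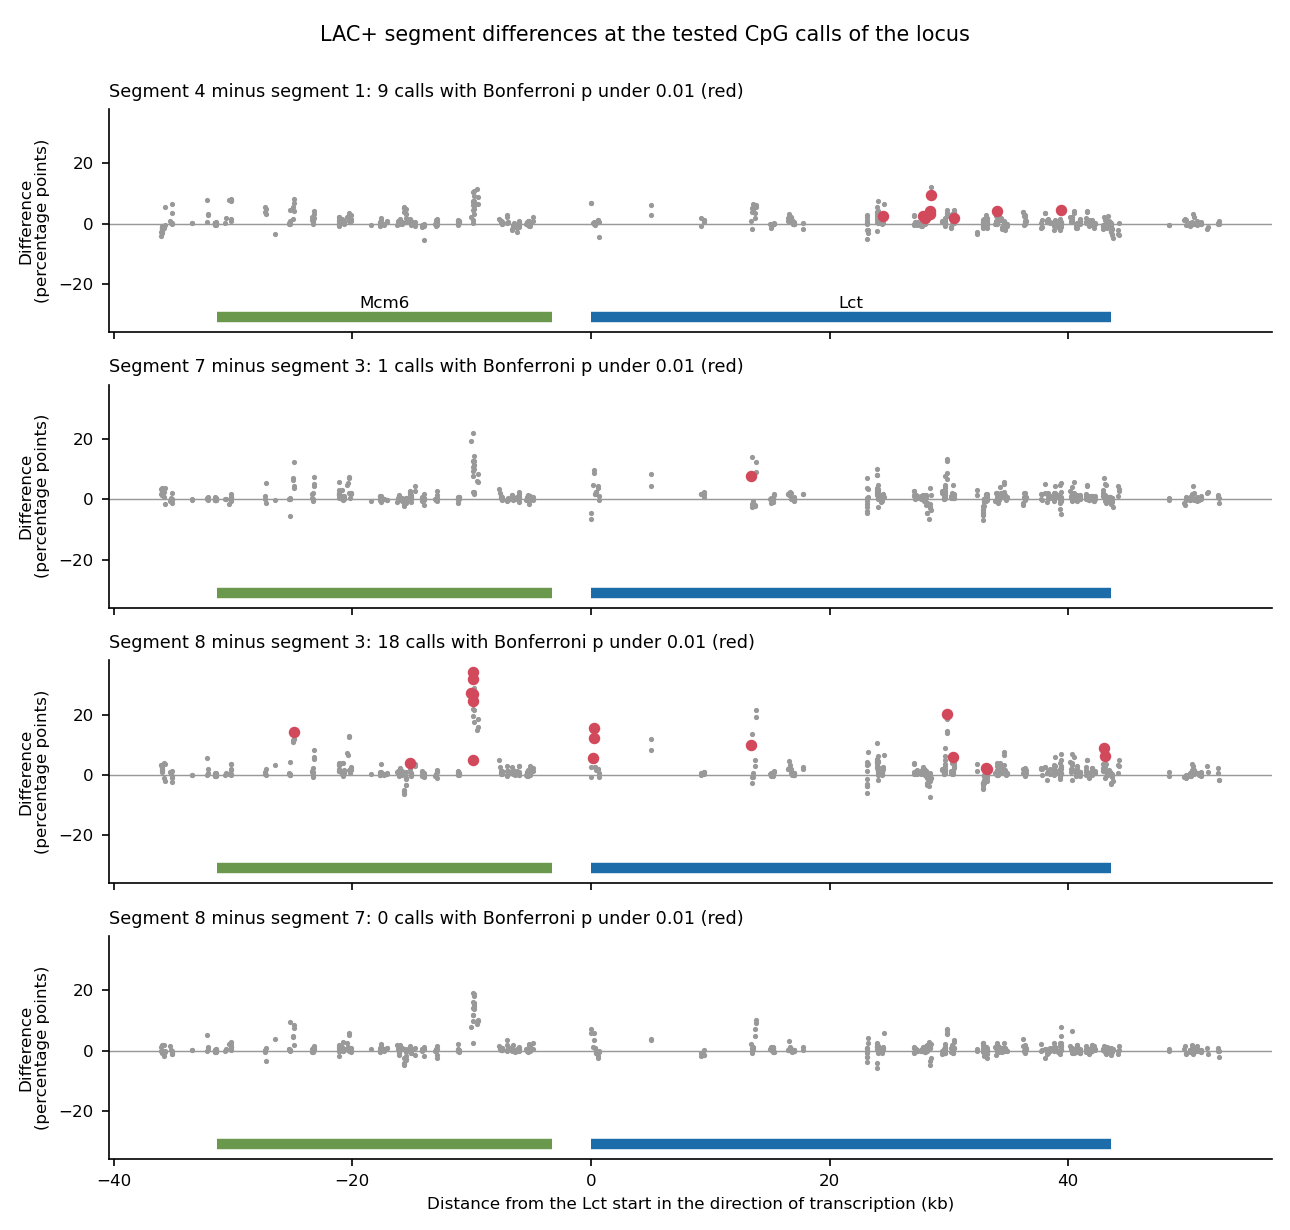
Difference in mean DNA modification (percentage points) at the 669 tested CpG calls of the locus, plotted against distance from the start of Lct in the direction of transcription (kb), for the 4 segment pairs; red points are calls with a Bonferroni-adjusted p under 0.01. The 9 calls of segment 4 minus 1 lie in the downstream part of Lct and 6 of the 18 calls of segment 8 minus 3 stack up at Mcm6 exon 13, upstream of Lct.

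Segment 4 differed from segment 1 in the middle and distal part of *Lct*, with no call toward its start. Of the 9 calls, 4 lay in exon 8, and 1 each in intron 8, exon 7, exon 11, intron 9 and intron 14. At the intron 8 call shown above (chr1:128299820, minus strand) the 7 segment 1 libraries had 45.5% to 50.99% and the 7 segment 4 libraries 55.1% to 61.5%. The groups did not overlap, with means of 48.2% ± 2.02 and 57.7% ± 2.44 (SD, n = 7) and an exact permutation p of 0.000583, the smallest that 7 against 7 can give. This was the widest gap of the 9 calls, at 9.53 points with an adjusted p of 0.000683 in the quasi-binomial fit. The neighbouring calls of exon 8 changed less and sat nearer to full modification: chr1:128299886 went from 77.1% to 80.9% in segment 1 to 82.5% to 84.8% in segment 4, and chr1:128299898 from 81.4% to 85.8% to 86.4% to 87.9%. Again no library of one segment fell within the range of the other. The groups did not overlap at 7 of the 9 calls, against 17 of all 669 (2.54%). At exon 8 chr1:128300489 the means were 87.9% ± 0.829 and 90.5% ± 0.803, and at exon 11 chr1:128294283 they were 69.4% ± 1.12 and 73.7% ± 0.888 (SD, n = 7 each). Only 5 of the 9 were also called over the 9 segments of P60 mice, in contrast to segment 8 minus 3, where all 18 were. Of all 669 calls of the locus, 138 were called in P60 mice. The difference between these shares was not tested.

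Segment 8 differed from segment 3 mainly at sites that also varied along the gut of P60 mice. Of the 18 calls, 6 lay in *Mcm6* exon 13 and the adjoining end of intron 12, 3 in *Lct* exon 1, 2 each in *Lct* exons 10 and 17, and 1 each in *Lct* exon 9, *Lct* introns 2 and 9, *Mcm6* exon 10 and *Mcm6* intron 3. The widest gap was at *Mcm6* exon 13 chr1:128338194 on the plus strand. There the 7 libraries of segment 3 ranged from 17.8% to 77.5% with a median of 41.9%, and those of segment 8 from 70.7% to 80.6% with a median of 79.3%. In segment 3, 6 libraries lay below all of segment 8, and replicate 7 lay within its range. The means were 43.7% ± 21.5 and 77.7% ± 3.85 (SD, n = 7 each), a difference of 34.03 points with an exact permutation p of 0.00175. The other calls of the exon 13 group differed by 4.92 to 31.8 points.

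A quite different picture was seen in *Lct* intron 2, where a nearly unmodified CpG, chr1:128314931 on the minus strand, separated the segments with little spread. Segment 3 libraries had 7.54% to 12.6%, segment 7 libraries 15.01% to 18.5% and segment 8 libraries 15.7% to 21.9%. Neither ileal segment overlapped segment 3, replicate 7 included; between segments 7 and 3 the groups did not overlap at 12 of all 669 calls (1.79%). The means were 8.79% ± 1.89, 16.5% ± 1.45 and 18.8% ± 1.85 (SD, n = 7 each), so that segment 7 stood 7.67 points and segment 8 9.97 points above segment 3 (exact permutation p of 0.000583 for both). It was the only call of the locus between segments 7 and 3, where the adjusted p was 5.19e-06 in the quasi-binomial fit, and it had the lowest p of the locus between segments 8 and 3. Segments 1 and 4 had 10.6% ± 1.11 and 11.4% ± 1.67 at this site (SD, n = 7 each). Another narrow but clean difference was seen at *Lct* exon 10 chr1:128295160, with 89.7% to 90.2% in segment 3 and 91.3% to 92.7% in segment 8. Among the 18 calls the groups did not overlap at 7, against 20 of all 669 (2.99%), and the exact permutation p of the 18 lay between 0.000583 and 0.0117.

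At *Lct* exon 1, the first coding exon, the call at chr1:128328060 had 65.4% to 87.8% over the libraries of segment 3, 82.4% to 88.5% over those of segment 7 and 86.8% to 91.05% over those of segment 8. Only replicate 7 of segment 3 reached into the range of segment 8. The means of segments 3 and 8 were 76.9% ± 7.95 and 89.0% ± 1.46 (SD, n = 7 each; exact permutation p of 0.00117). Nearby, chr1:128328160 went from 87.0% ± 3.66 in segment 3 to 92.7% ± 0.747 in segment 8, without overlap. At *Mcm6* intron 3 chr1:128353177 the gap was 14.3 points, from 71.0% ± 5.29 to 85.3% ± 2.36, also without overlap, although coverage was much lower at this site, with 162 reads in the shallowest of these 14 libraries. Leaving out the lane 2 library raised the number of calls between segments 8 and 3 from 18 to 26, with all 18 retained. Among the libraries marked as merged it was 9, each of them among the 18.

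To read the locus in larger units, 15 clusters of at least 3 CpG calls within 500 bp of each other were taken from the P60 mice, which are animals other than the LAC+ mice. They hold 112 of the 138 calls of the locus that differed over the P60 segments. The level of a cluster in a library was the mean over its CpG calls, and it was compared between segments by a two-sided exact permutation test, with Benjamini-Hochberg adjustment over 144 tests (36 regions, 4 pairs). Between segments 4 and 1, 3 of the 15 clusters passed at 0.05 against 16.7% of all regions, 2 of them higher in segment 4 (8.33% of all regions were) and 1 lower. Between segments 7 and 3 it was 2 against 11.1% of all regions, both lower in segment 7 (5.56% of all regions were higher), between segments 8 and 3 it was 7 against 30.6%, with 6 higher in segment 8 (27.8% of all regions were), and between segments 8 and 7 it was 1, higher in segment 8, against 5.56%. The groups of the 4 pairs did not overlap at 5.56%, 2.78%, 16.7% and 0% of all regions. The count between segments 7 and 3 was 0 without replicate 1, 2, 4, 5 or 6 and 1 without replicate 3, and that between segments 8 and 3 was 4 without replicate 3, 4, 5 or 6. The direction of the means was more uniform, with 13, 11, 12 and 14 of the 15 cluster means higher in the more distal segment in the same order. Of the 20 target means outside the locus, 9, 16, 16 and 14 were higher, so this direction was not particular to the clusters in the pairs with segment 3.

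The cluster of *Lct* exon 8 and intron 8 and an intergenic cluster separated segments 4 and 1 without overlap, in opposite directions. At exon 8 and intron 8, segment 1 libraries had 78.7% to 82.1% with a median of 80.1%, and segment 4 libraries 82.1% to 85.4% with a median of 83.7%. They did not overlap, although the nearest 2 libraries both round to 82.1%, and the means differed by 3.48 points (exact permutation p of 0.000583, adjusted 0.00932). In segments 3, 7 and 8 the same cluster gave 83.4%, 81.4% and 82.3%, on another lane. The exon 7 cluster, 81.03% in segment 1 and 83.8% in segment 4, was higher by 2.73 points (exact permutation p of 0.00117, adjusted 0.0129). The opposite direction was seen just past the 3′ end of *Lct*, where an intergenic cluster had 80.6% to 82.9% in segment 1 and 75.3% to 79.8% in segment 4, without overlap, and the mean fell by 3.49 points. From segment 3 to 8 its mean fell by 2.07 points, again without overlap.

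**Figure D2:**
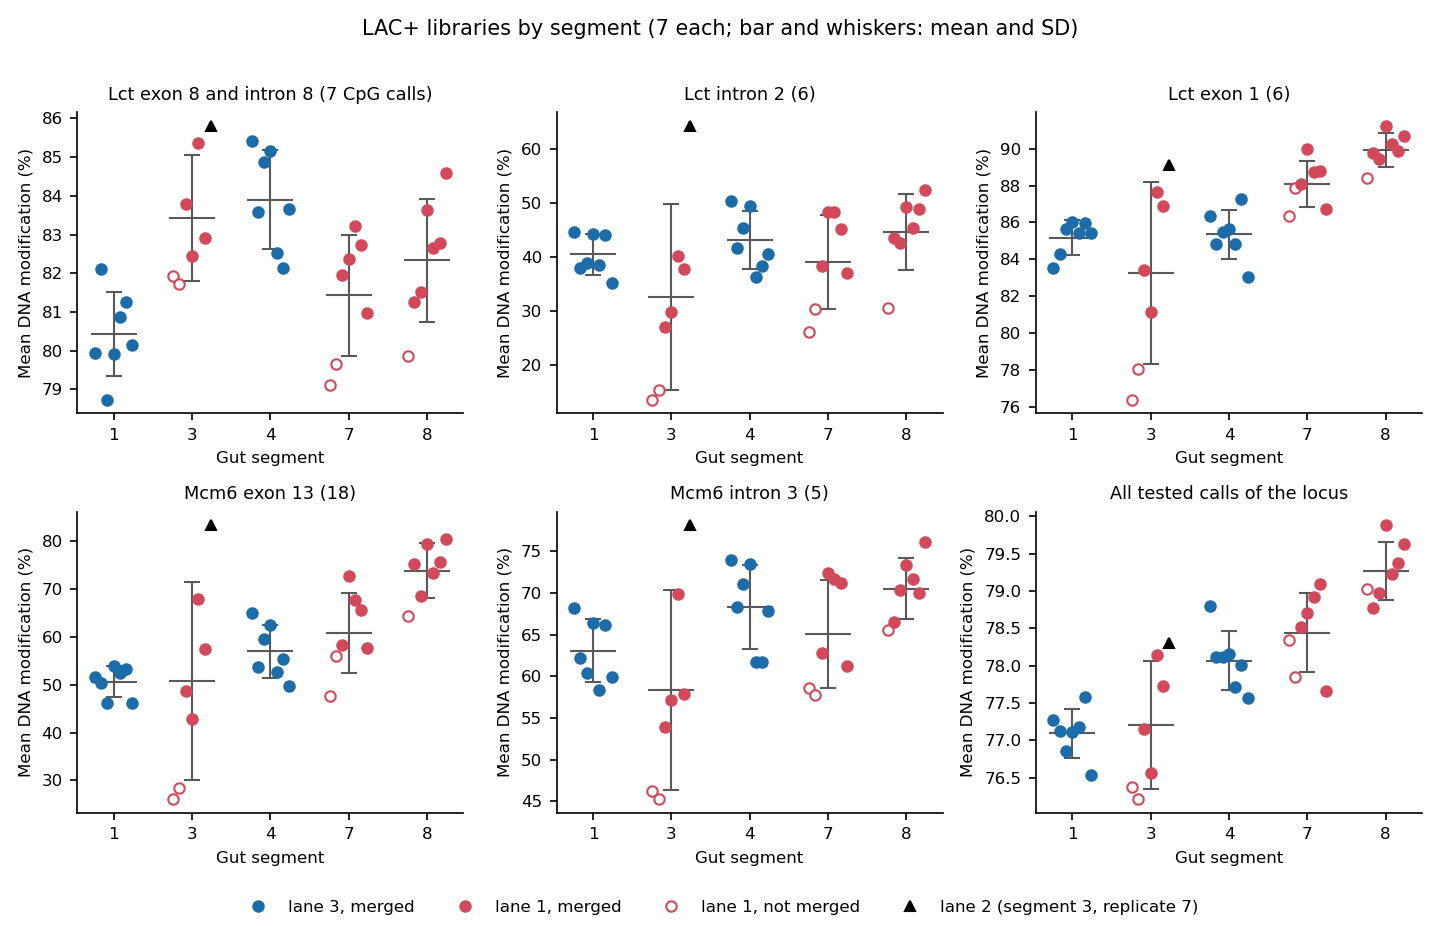
Mean DNA modification (%) of 5 clusters and of the 669 tested CpG calls of the locus in each LAC+ library by gut segment, with the number of CpG calls in brackets, bars and whiskers for mean and SD, and symbols for lane and for files marked as merged. Segment 4 lies above segment 1 at Lct exon 8 and intron 8, segment 8 is highest on average at Lct exon 1, Mcm6 exon 13 and Mcm6 intron 3, and in segment 3 the unmerged libraries lie low and the lane 2 library high.

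Toward the ileum the widest difference was in the cluster around *Mcm6* exon 13, with 18 CpG calls. Segment 8 libraries had 64.5% to 80.4% with a median of 75.3%, and segment 7 libraries 47.7% to 72.7% with a median of 58.2%. Segment 8 was higher by 13.03 points (exact permutation p of 0.00699, adjusted 0.0438), which made it the only cluster to pass between these neighbouring segments; with 6 libraries per segment, without replicate 2, 3, 4, 5, 6 or 7, the count of clusters was 0. Against segment 3, with 26.1% to 83.3% and a median of 48.8%, segment 8 was higher by 23.1 points on average, but that difference did not pass (exact permutation p of 0.0175, adjusted 0.074). Without the lane 2 library it was 28.6 points (exact permutation p of 0.00117, adjusted 0.00987), and within merged libraries 21.2 points (exact permutation p of 0.00476). Segment 1 libraries had 46.1% to 53.97% and segment 4 libraries 49.8% to 65.02%. They overlapped, and the difference of 6.36 points did not pass (exact permutation p of 0.0256, adjusted 0.0878).

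The *Lct* intron 2 and *Mcm6* intron 3 clusters also had wide spread in segment 3. In intron 2 segment 8 exceeded segment 3 by 12.0 points (44.6% against 32.6%, exact permutation p of 0.114), and by 17.3 points without the lane 2 library (exact permutation p of 0.00699, adjusted 0.0325). In *Mcm6* intron 3 the values were 70.5% and 58.4%, a difference of 12.2 points (exact permutation p of 0.0239, adjusted 0.0878), and of 15.5 points without that library (exact permutation p of 0.00233, adjusted 0.0168). The *Lct* exon 1 cluster passed with all libraries: segment 3 ranged from 76.4% to 89.1% with a median of 83.4%, and segment 8 from 88.4% to 91.2% with a median of 89.9%. Its difference of 6.71 points had an exact permutation p of 0.00117 (adjusted 0.0129). At the *Lct* exon 9 cluster with its flanking introns, segment 8 (76.5% to 79.3%) did not overlap segment 3 (65.7% to 76.3%), and the difference was 7.69 points (exact permutation p of 0.000583, adjusted 0.00932). Without the lane 2 library 11 of the 15 clusters passed between segments 8 and 3, 10 of them higher in segment 8, and 4 passed between segments 7 and 3, all higher in segment 7.

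Averaged over all 669 calls, the locus became more modified from segment 1 to 4 and from segment 3 to 8. From segment 1 over segments 3, 4 and 7 to segment 8 the means ± SD were 77.1% ± 0.326, 77.2% ± 0.859, 78.1% ± 0.392, 78.4% ± 0.531 and 79.3% ± 0.387 (n = 7 each). Segment 4 exceeded segment 1 by 0.974 points (exact permutation p of 0.00117, adjusted 0.0129) and segment 8 exceeded segment 3 by 2.06 points without overlap (exact permutation p of 0.000583, adjusted 0.00932). Segment 8 also exceeded segment 7 by 0.826 points (exact permutation p of 0.00583, adjusted 0.042), but this difference, of 0.637 to 0.918 points, no longer passed without replicate 1, 2, 3, 4, 5 or 7. The step from segment 3 to 7, of 1.23 points, did not pass with all libraries (adjusted 0.0571) and did without the lane 2 library (1.42 points, exact permutation p of 0.00408, adjusted 0.0255). The 885 calls outside the locus also rose, by a median of 1.03 points from segment 3 to 7 and 1.44 points from segment 3 to 8.

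Segment 3 stood apart by the spread of its libraries. In replicates 1 to 7 the *Mcm6* exon 13 cluster had 26.1%, 28.5%, 48.8%, 42.9%, 67.96%, 57.4% and 83.3%, an SD of 20.7 points, while the other LAC+ segments had SDs of 3.24 to 8.41 points. The same libraries gave 13.7%, 15.5%, 27.1%, 29.8%, 40.2%, 37.8% and 64.2% in the *Lct* intron 2 cluster. The unmerged replicates 1 and 2 were lowest and the lane 2 replicate 7 highest at both. Segment 3 was the widest of the 5 LAC+ segments in 12 of 15 clusters, and its SD exceeded that of P60 segment 3 in 13 of 15 and that of lac- segment 3 in 9 of 15. For the exon 13 cluster the SDs of segment 3 were 14.3 points in lac- and 3.89 points in P60 mice. Replicate 7 was the highest library of segment 3 in 11 of the 15 clusters. Within segment 3, median reads per CpG call had r = -0.315 with the exon 13 cluster (exact permutation p of 0.480), and the parts of lane and merging in this spread were not tested.

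**Figure D3:**
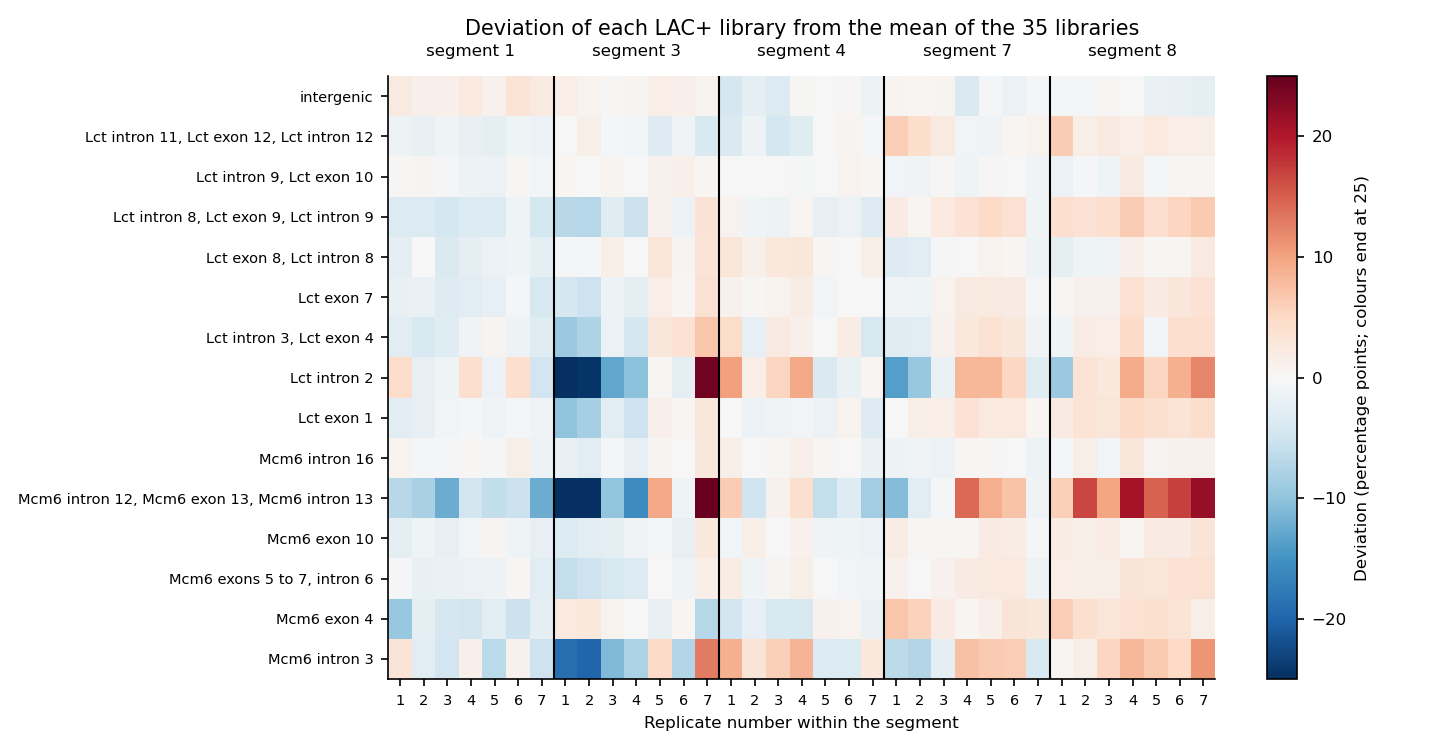
Deviation (percentage points) of each of the 35 LAC+ libraries, in columns by segment and replicate, from the mean of all 35 in each of the 15 clusters, in rows ordered from the 3′ end of Lct to Mcm6 intron 3. The strongest colours are in the Mcm6 exon 13 and Lct intron 2 rows, where segment 3 runs from far below the mean in replicates 1 and 2 to far above it in replicate 7.

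The whole profile of a library was also set against the mean profiles of the 9 P60 segments, over the 112 cluster CpG calls, and the P60 segment with the lowest mean absolute difference was taken as the nearest. Segment 8 libraries were nearest to P60 segment 7 (1 library), 8 (3) or 9 (3), and segment 7 libraries to P60 segment 6 (4), 7 (1) or 8 (2). Ileal LAC+ libraries thus lay near ileal or neighbouring P60 profiles. Segment 4 libraries were nearest to P60 segment 6 (5) or 7 (2), more distal than their own position in all 7 libraries, and segment 1 libraries to P60 segment 1 (2) or 6 (5). In segment 3, replicates 1 to 7 were nearest to P60 segments 3, 3, 5, 2, 7, 6 and 9. For lac- libraries the nearest P60 segment was 1 (4) or 6 (2) in segment 1, 3 (1), 4 (1), 6 (3) or 7 (2) in segment 4 and 2 (1), 3 (3), 6 (1) or 7 (1) in segment 3. These are descriptions, and the difference between milk groups was not tested. The P60 libraries came from other lanes than the LAC+ libraries (4 to 7) and from younger mice, so nearness to a P60 segment mixes position with lane and age.

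A captured target outside the locus varied with the same libraries. The *Kcnq1*/*Kcnq1ot1* target, 9 CpG calls in the control region of an imprinted non-coding RNA, had segment means of 80.2% to 82.3% over the 9 P60 segments. Single P60 libraries ran from 73.0% to 85.3%. In LAC+ mice the segment means were 69.3%, 70.2%, 65.99%, 74.4% and 71.8% for segments 1, 3, 4, 7 and 8, and single libraries ran from 45.9% to 87.7%. The target did not differ detectably over the 5 segments (permutation p of 0.506). In lac- mice the segment means were 70.5% to 84.2%, and single libraries lay between 63.1% and 88.2%. Within segment 3, replicates 1 to 7 had 87.7%, 86.8%, 73.6%, 72.3%, 57.4%, 67.61% and 45.9%, close to the reverse order of the *Mcm6* exon 13 cluster.

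Within each segment, libraries low at this target were high at *Mcm6* exon 13. Pearson's r was -0.917, -0.992, -0.830, -0.896 and -0.826 in segments 1, 3, 4, 7 and 8, with exact permutation p of 0.0135, 0.000595, 0.0331, 0.00675 and 0.0137 and, adjusted over 15 relations, 0.0257, 0.00298, 0.0552, 0.0169 and 0.0257. Spearman's rho was -0.643, -0.964, -0.821, -0.964 and -0.857 in the same order, with exact p of 0.139, 0.00278, 0.0341, 0.00278 and 0.0238. Without the 2 libraries farthest from the median of the target, r was -0.377, -0.977, -0.782, -0.815 and -0.908, so the relation of segment 1 rested on 2 libraries. With the *Lct* intron 2 cluster r was -0.718, -0.978, -0.960, -0.972 and -0.967 (exact permutation p of 0.0804, 0.000198, 0.000794, 0.000397 and 0.00119), rho was -0.643, -1, -1, -0.964 and -0.929 (exact p of 0.139, 0.000397, 0.000397, 0.00278 and 0.00675), and r without the 2 farthest libraries was -0.769 to -0.965. Median reads per CpG showed no such relation with exon 13, with r between -0.605 and 0.592 (exact permutation p of 0.152 to 0.678). The relation was chosen after the values had been seen, from 20 targets and 15 clusters. Its p-values, also those adjusted over 15 relations, do not allow for that choice and cannot serve as a test of the relation. Relations with the other targets were not computed. The part of the relation in the segment differences was not tested. Among the steps of the exon 13 cluster, segment 8 minus 7 stood beside a *Kcnq1* difference of -2.61 points and segment 8 minus 3 beside 1.57 points (exact permutation p of 0.535 and 0.807).

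**Figure D4:**
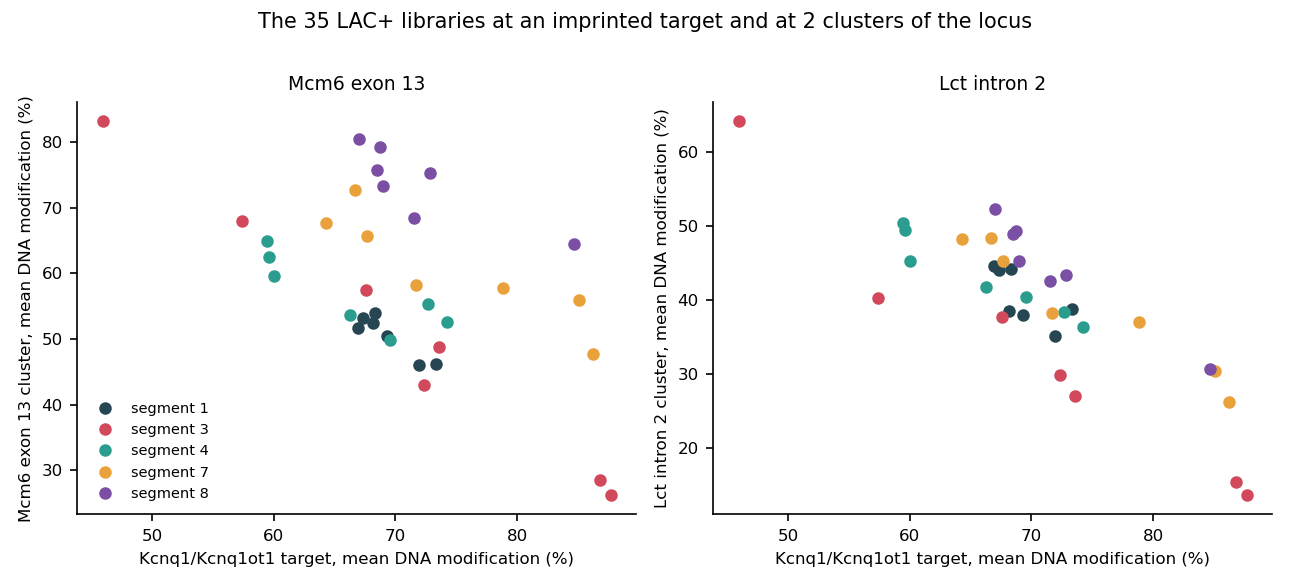
Mean DNA modification (%) of the Kcnq1/Kcnq1ot1 target on the horizontal axis against the Mcm6 exon 13 cluster (left) and the Lct intron 2 cluster (right), 1 point per LAC+ library and a colour per segment. Libraries with low values at the imprinted target have high values at both clusters within each segment, and segment 3 spans nearly the whole range.

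Over all 5 segments, 53 of the 669 calls differed (7.92%, against 5.92% of all 1554 and 39 of 885, or 4.41%, outside the locus), with segment and lane mixed in this test. Of the 53, 40 were lowest in segment 1, 44 were highest in segment 8 and 40 had means that increased in the order 1, 4, 7, 8. The 53 were picked by this same test, and the shares over all 669 calls were not counted. Segments 1 and 4 came from another lane than segments 7 and 8, so this order cannot be told apart from lane. By gene, *Mcm6* exon 13 and *Lct* exon 8 held 6 each and *Mcm6* exon 4 held 5, without regard to how many calls were tested in each. In exon 4 the call at chr1:128351546 had means of 74.7%, 77.6% and 83.6% in segments 1, 3 and 8. The called sites with lower distal means were in *Mcm6* intron 9 (2), *Mcm6* exon 2 (2) and *Lct* intron 13 (1). A fit with lane as a term left 27 calls, 24 of them among the 53. Across lanes, the counts of the locus were 3 of 669 for segment 3 minus 1, 26 for 7 minus 1, 51 for 8 minus 1, 3 for 3 minus 4, 5 for 7 minus 4 and 19 for 8 minus 4, or 0.448%, 3.89%, 7.62%, 0.448%, 0.747% and 2.84%. Among regions, 18 of 36 differed over the 5 segments (50% of all regions), among them 11 of the 15 clusters (permutation test with 100000 resamples, adjusted over 36).

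The gradient of LAC+ mice was then compared with that of lac- and P60 mice at the 15 clusters and the whole locus. The P60 libraries came from lanes 4 to 7, and none was marked as merged. The lac- libraries of segments 3, 7 and 8 came mostly from lanes 6 and 7. Group is therefore mixed with lane in these comparisons, and against P60 mice also with age. For the *Mcm6* exon 13 cluster, segment 8 minus 3 was 23.1 points in LAC+, 31.7 in lac- and 39.4 in P60 mice. Neither difference between gradients passed (exact permutation p of 0.427 against lac- and 0.0657 against P60). For segment 7 minus 3 it was 10.1 points in LAC+ and 29.4 in P60 mice (permutation p of 0.0319, adjusted 0.449), and 15.5 points in LAC+ mice without the lane 2 library (permutation p of 0.0665). In *Lct* exon 1 the step from segment 3 to 8 was 6.71 points in LAC+, 9.40 in lac- and 10.8 in P60 mice. The LAC+ gradient was smaller in size than the P60 gradient in 14 of 16 comparisons of segment 8 minus 3 and in 15 of 16 of segment 7 minus 3, all of which rest on the same segment 3 libraries, and in 9 of 16 of segment 4 minus 1. The 15 clusters were taken because their calls differed over the segments of these same P60 libraries. That choice favours wide P60 gradients, so comparisons with P60 mice at the clusters cannot show whether the LAC+ gradient is smaller. Against lac- the LAC+ gradient was smaller in 10, 11 and 12 of 16 in the same order. Of 96 tests, 8 had an unadjusted p under 0.05 and none passed after adjustment, with a lowest adjusted p of 0.449. The test exchanged group labels within each segment without removing differences in level between groups. Such differences widen the permuted spread, so a difference between gradients can be missed where levels differ. Without the lane 2 library it was 5 of 96, with a lowest adjusted p of 0.586. For the locus mean, segment 8 minus 3 was 2.06 points in LAC+, 2.48 in lac- and 2.16 in P60 mice.

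**Figure D5:**
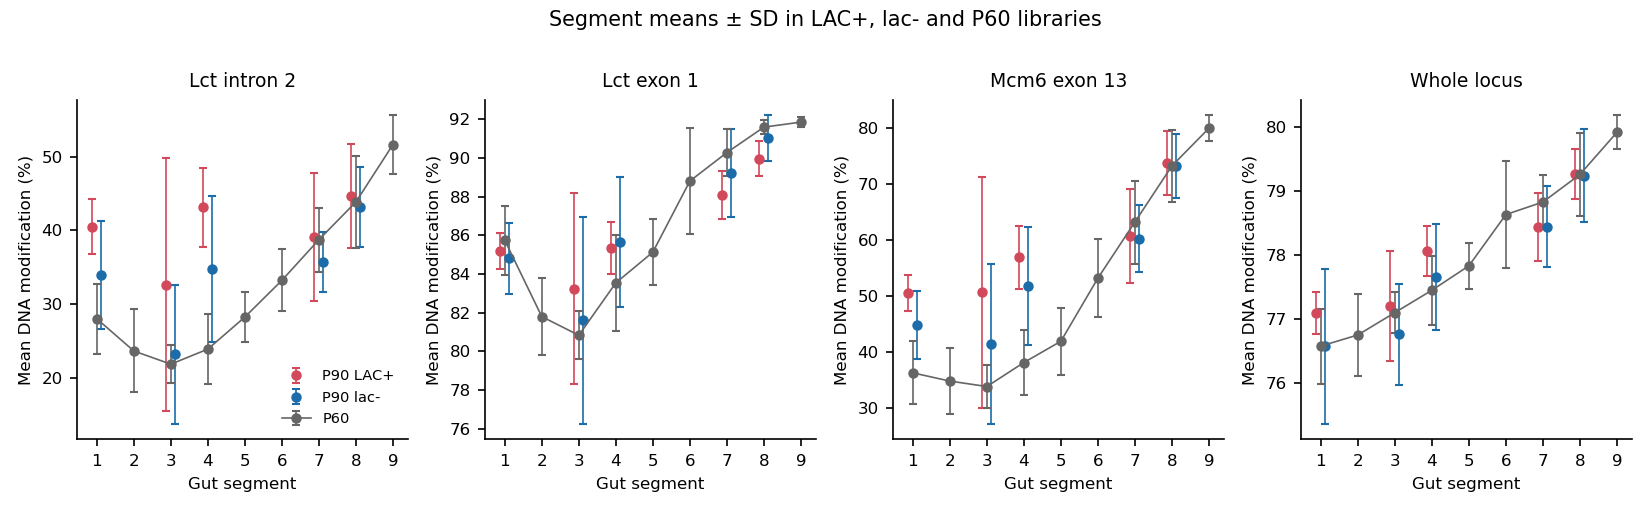
Mean ± SD of DNA modification (%) by gut segment in P90 LAC+, P90 lac- and P60 libraries at 3 clusters and over the whole locus. At Lct intron 2, Mcm6 exon 13 and the whole locus the segment 8 means of the 3 groups lie close together, and the LAC+ bars of segment 3 are the longest of the LAC+ segments.

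The calls that had differed over the P60 segments had wider LAC+ differences than the others; this was not tested. Between segments 8 and 3, 122 of these 138 calls were higher in segment 8 by a median of 3.46 points over the 138, and all 18 LAC+ calls were among them. Of the other 531 calls of the locus, 399 were higher, by a median of 0.635 points over the 531. For segment 4 minus 1, the median was 1.67 points over the 138 and 0.227 points over the 531.

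Most CpGs gave like values on both strands. In the clusters 24 CpGs were tested on both strands, with a median strand difference of 2.19 points, and all 24 had the same direction on both strands between segments 8 and 3, and 22 of 24 between segments 4 and 1. Over all such CpGs of the locus, 76.8% had the same direction between segments 8 and 3 and 70.8% between segments 4 and 1, and the strands differed in level by over 20 points at 19 CpGs. In the clusters the exception in level was in *Mcm6* exon 13, where the plus strand call chr1:128338194 had segment means of 43.7% to 77.7% and its partner chr1:128338195 on the minus strand 4.20% to 9.46%. The minus strand call nevertheless followed the segments, with 1.65% to 9.22% in segment 3 and 8.17% to 10.5% in segment 8. It was called, at 4.92 points with an exact permutation p of 0.00175.

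The segment differences of annotated features that the study had examined for an effect of milk (*Lct* exon 12, intron 8 and intron 2) or used as a control region (*Mcm6* intron 1) are given here unadjusted. *Lct* exon 12 was higher in segment 8 than in segment 3 by 4.00 points without overlap (exact permutation p of 0.000583). *Lct* intron 8 was higher in segment 4 than in segment 1, with 73.2% against 68.3% (exact permutation p of 0.0192). *Lct* intron 2 gave 48.3% and 52.8% in segments 3 and 8 (exact permutation p of 0.219), and 7.19 points without the lane 2 library (exact permutation p of 0.0122). The control region, *Mcm6* intron 1 at the start of the gene, had low values, with 16.3% in segment 1 and 21.1% in segment 4 (exact permutation p of 0.00874). *Lct* exon 1 as a whole, chosen after its values were seen, was higher in both ileal segments than in segment 3 without overlap, by 4.42 points in segment 7 and 5.15 points in segment 8 (exact permutation p of 0.000583 each).

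Imprinted targets also differed between LAC+ segments, in both directions. Outside the locus 7 of 885 calls passed between segments 4 and 1 (0.791%; 2 higher, 0.226%, and 5 lower, 0.565%), 7 between segments 7 and 3 (0.791%; 4 higher, 0.452%, and 3 lower, 0.339%), 12 between segments 8 and 3 (1.36%; 10 higher, 1.13%, and 2 lower, 0.226%) and 0 between segments 8 and 7, where 33 had an unadjusted p under 0.05. The groups did not overlap at 6 of 7, 4 of 7 and 8 of 12 of these calls, against 1.69%, 1.36% and 2.49% of the 885, and at 0 calls against 0.339% for segments 8 and 7. All calls outside the locus in these pairs were also called over the P60 segments. In *Zdbf2*, a zinc-finger gene, chr1:63255153 had 25.5% to 30.9% in segment 1 and 35.0% to 38.5% in segment 4, without overlap. The means, 27.5% ± 1.82 and 36.9% ± 1.24 (SD, n = 7 each), differed by 9.39 points (exact permutation p of 0.000583), and the adjusted p of 2.21e-12 in the quasi-binomial fit was the lowest of the 4 pairs. Further along, segments 7 and 8 had 38.3% and 39.2%.

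At the *Peg13*/*Trappc9* target, where the non-coding RNA *Peg13* lies within *Trappc9*, single calls were lower in segment 4 than in segment 1 and in the ileal segments than in segment 3. The call at chr15:72801572 ranged over 49.5% to 54.8%, 37.8% to 44.2%, 33.7% to 39.3%, 22.7% to 33.8% and 22.8% to 36.7% for segments 1, 3, 4, 7 and 8. Segment 4 did not overlap segment 1, with a difference of -15.4 points, and neither ileal segment overlapped segment 3, with differences of -12.8 and -10.7 points (exact permutation p of 0.000583 each). The mean over all 83 calls of this target did not differ over the segments (permutation p of 0.613), and 8 of the 83 were called over the 5 segments, 1 of them higher distally. The least modified ileal libraries at this call were the unmerged ones. At chr15:72801841, the mean of segment 3 was 68.7% ± 4.15 and that of segment 8 51.5% ± 3.12 (SD, n = 7 each), the largest decrease in that pair at -17.1 points.

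In *Plagl1*, which encodes a zinc-finger transcription factor, 5 calls were higher in segment 8 than in segment 3 by 12.1 to 16.2 points. At chr10:13090269 on the minus strand segment 3 libraries had 28.3% to 38.3%, segment 7 libraries 42.7% to 49.7% and segment 8 libraries 44.1% to 52.7%, with no overlap between segment 3 and either. The whole target, 13 calls, had 47.1% in segment 3 and 55.4% in segment 8, a difference of 8.28 points (exact permutation p of 0.00117, adjusted 0.0129). The *Snrpn*/*Snurf* target, from the imprinted region that encodes a splicing protein, went from a mean of 48.2% in segment 3 to 54.3% in segment 8. The groups did not overlap and the difference was 6.17 points (exact permutation p of 0.000583, adjusted 0.00932). The *Zdbf2* target as a whole was higher by 2.14 points in segment 7 and by 2.27 points in segment 8 than in segment 3. Between segments 4 and 1 the *Meg3* and *Airn*/*Igf2r* targets were lower in segment 4, by -2.77 points (exact permutation p of 0.00466, adjusted 0.0395) and -1.23 points (exact permutation p of 0.00641, adjusted 0.042).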

How the data were processed

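DNA modification was measured by bisulfite padlock probe sequencing of enterocytes, with 1 library per sample. The authors trimmed the reads with Trimmomatic 0.32, mapped them to GRCm38/mm10 with Bismark (version not given in the sources used here) and deposited, for each cytosine and strand, the counts of reads called modified and unmodified. The percentage is the first count over their sum. Files had no header, and the first line of each was not parsed. Lane and merging were read from the names of the deposited files. The labels do not say which segments came from the same mouse, so p-values measure only the spread between samples.

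CpG calls with over 30 reads were used. They were fitted with a quasi-binomial model over the 5 segments, with Bonferroni adjustment over 1554 calls and a threshold of 0.01. Cluster, target and locus means were tested with two-sided exact permutation tests, or with 100000 resamples where enumeration was too long, in which case the smallest p they can give is 1e-05. The 15 clusters came from the P60 libraries. The CpGs named are, for each pair within a lane, the 5 called CpGs of the locus with the lowest p and the called CpG with the largest difference in each direction, in each cluster the CpG with the lowest p over the 5 segments, and outside the locus the 3 called CpGs with the lowest p; other CpGs that are named were chosen after their values were seen. The members and lists were chosen with earlier results of these data known. The model was tested on simulated data: at the size of the comparison of segments 8 and 3, with 1554 CpG calls, it called 5.97%, 54.5% and 68.7% of differences of 5, 10 and 15 points. Of simulated calls without a difference, 4.95% had an unadjusted p under 0.05 in that comparison, 4.5% in 7 minus 3, 4.65% in 8 minus 7 and 9.72% in 4 minus 1, and the threshold called 0 of them except for 2 of 1354 in 8 minus 7. Each simulated CpG call had the same spread in all 5 segments, unlike the data, where segment 3 was mostly the widest. These shares therefore cannot show how the tests against segment 3 behave with its wider spread. Intervals of single libraries are not given, since reads carry no molecular identifiers and the number of molecules counted is not known. The chi-square per CpG call between replicates ran from 3.85 to 108.7, above the counting error of independent reads. Since reads carry no molecular identifiers, this does not show separate samples. Tools were Python 3.11.15, NumPy 2.4.6, SciPy 1.17.1, pandas 2.3.3, Matplotlib 3.10.9, and limma 3.58.1 in R 4.3.3 as an alternative.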

Additional observations from a re-analysis of the deposited data

Results flagged for a closer look

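Of 80 groups of 7 libraries that were examined for a library far from the rest, 2 had such a library, where chance flags about 1 in 20 groups. In the cluster of *Lct* intron 11, exon 12 and intron 12, replicate 1 of segment 8 had 87.8%, above the next library at 83.9% and the lowest at 83.2%; its file is the only one of LAC+ segment 8 not marked as merged. In the cluster of *Lct* intron 8, exon 9 and intron 9, replicate 6 of segment 1 had 71.7%, above the next at 69.4% and the lowest at 68.3%.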

How the results depend on the processing

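The number of CpG calls depended on the threshold and the fit. In the order segment 4 minus 1, 7 minus 3, 8 minus 3 and the 5 segments, the locus gave 9, 1, 18 and 53 calls. Benjamini-Hochberg adjustment at 0.05 gave 71, 36, 109 and 248. Bonferroni adjustment over CpGs and 21332 other cytosines gave 4 for segment 4 minus 1, 3 for 8 minus 3 and 26 for the 5 segments. With limma the counts were 3 for segment 4 minus 1 and 2 for 7 minus 3. Fits to the pair alone gave 4 for segment 4 minus 1 and 4 for 8 minus 3, merged files gave 9 for 8 minus 3, leaving out the lane 2 library gave 2 for 7 minus 3, and lane as a term gave 27 for the 5 segments. Leaving out each replicate number from all segments gave 3 to 7, 1 to 2, 3 to 15 and 22 to 49. The count moved by over 1.5 times without numbers 2, 3, 4 and 7 for segment 4 minus 1 (4, 3, 4 and 5), without number 7 for 7 minus 3 (2), without numbers 1, 2, 3, 4 and 6 for 8 minus 3 (9, 3, 4, 3 and 6) and without numbers 2, 3, 4, 5 and 6 for the 5 segments (28, 22, 25, 32 and 31). Segment 8 minus 7 gave 0 under every alternative run. Alternatives of the 5-segment regions and of the gradients without the lane 2 library were chosen after seeing the data.

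The numbers were not taken to pair samples, since not all same-numbered samples deviated together, and the labels do not say whether a number marks a mouse. By source name, same-numbered samples had correlations of -0.592 to 0.768 (mean 0.0482, against -0.00852 for other numbers), and 36 of 140 lookups were best with the own number, where an even share is 20; by title it was 25. A replicate block by title number gave 3, 1, 11 and 32 calls for segment 4 minus 1, 7 minus 3, 8 minus 3 and the 5 segments. In the same order, a block by source name gave 11, 3, 20 and 51. With the block as sign flips, whose smallest p is 0.0156, the locus differences of 0.974, 2.06 and 0.826 points (4 minus 1, 8 minus 3, 8 minus 7) no longer passed, and 0 clusters passed in each of the 4 pairs. These 3 locus differences were at that smallest p, and their adjusted p was 0.0703. No region could therefore pass, and this setting cannot show whether the results depend on pairing.

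For the locus mean, segment 7 minus 3 passed without the lane 2 library (1.42 points), segment 8 minus 7 no longer passed in merged files (0.728) and segment 4 minus 1 no longer passed at over 100 reads (0.846). Without each replicate in turn the differences were 0.881 to 1.06, 1.08 to 1.55, 1.85 to 2.22 and 0.637 to 0.918 points. Of the clusters, 8 minus 7 gave 2 with pooled reads and 3 with all CpGs of the span. Without the lane 2 library 7 minus 3, 8 minus 3 and 8 minus 7 gave 4, 11 and 2, merged files gave 0 for 7 minus 3 and 0 for 8 minus 7, and leaving out replicates gave 3 to 4, 0 to 3, 4 to 9 and 0 to 1. The causes were not tested. Of 2016 values of single regions under alternatives, 1882 stayed on their side of the threshold, 82 of them uncalled values that changed sign, 95 lost the call, 39 gained it and 0 called values changed sign. The 95 include all calls lost under the sign flips, where none could pass. A difference of 5 points at a single CpG call was seldom called in data simulated with equal spread in all segments (5.97%).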
